A study of Homo sapiens with 4 samples.

Results

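The regions described here are FLI1 ChIP-seq peaks of SK-N-MC cells that lay within 2.5 kb of a start of transcription (TSS) of a gene that encodes a protein and had neither an SSRP1 nor an H3K27ac peak on them. They were chosen by the measured peak calls of all 3 targets: a FLI1 peak was taken when it shared less than 20% of its own length, and less than 20% of the other peak's length, with every SSRP1 and H3K27ac peak. Peaks with 4 or more tandem copies of GGAA were left out, as were chromosome 8 and chromosome 3 from 120 Mb. The rule found 1373 peaks, which were 3.78% of the 36305 FLI1 peaks on chromosomes 1 to 22 and X, 4.71% of the 29156 in the same regions, and 23.8% (95% exact interval 22.7 to 24.9%) of the 5770 FLI1 peaks at promoters of those regions. They are called FLI1-only promoter peaks below. SK-N-MC is an established Ewing sarcoma line. The libraries carried no drug or knockdown label, chromatin was cut with micrococcal nuclease and then sonicated, and each of FLI1, SSRP1 and H3K27ac had 1 library, called against 1 input library. The deposited lists give each peak's position and nothing of its height, so read depth is unknown and a missing peak means only that none was called. With 1 library a target there was no replicate check. Intervals below cover counting error over peaks or genes, and no p-value is given.

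FLI1 is an ETS transcription factor, and in Ewing sarcoma its DNA-binding part is fused to EWSR1. ETS factors read a GGAA centre with flanking bases that set the affinity, and the fusion also binds tandem GGAA repeats. SSRP1 is a subunit of FACT, a histone chaperone that helps polymerases pass nucleosomes, and H3K27ac marks active promoters and enhancers. A factor peak close to a start site with neither of these is therefore a place where the usual signs of an active promoter were not called on the bound stretch itself.

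The sequences under some of these peaks show what FLI1 was found on. All are 150 bases of the hg19 plus strand, written 5′ to 3′. The first set is the 3 widest peaks that held an ETS core, CCGGAAG or CCGGAAA on either strand, at genes without H3K27ac in a promoter window and whose 150 bases around the core meet no annotated UTR (wider peaks such as HELB failed the last condition), and the capitals mark the core. The IGFBP7 stretch lies upstream of that gene's TSS, in an exon of a long non-coding RNA gene. The A3GALT2 and FAM166C stretches lie downstream of the TSS inside the gene, outside any annotated UTR, and that of FAM166C meets an exon of a transcript with a retained intron.
IGFBP7, chr4:57976797-57976946: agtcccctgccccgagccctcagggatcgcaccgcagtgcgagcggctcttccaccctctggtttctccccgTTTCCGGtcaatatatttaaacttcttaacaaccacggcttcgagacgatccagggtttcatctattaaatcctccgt
A3GALT2, chr1:33786302-33786451: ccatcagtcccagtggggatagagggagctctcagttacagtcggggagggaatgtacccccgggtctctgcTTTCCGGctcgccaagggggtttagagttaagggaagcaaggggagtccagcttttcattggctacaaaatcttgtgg
FAM166C, chr2:26785947-26786096: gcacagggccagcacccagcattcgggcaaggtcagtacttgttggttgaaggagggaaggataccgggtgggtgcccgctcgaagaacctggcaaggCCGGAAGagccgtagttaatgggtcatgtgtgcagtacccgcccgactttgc
In each of the 3, the core was a single copy.

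The next set, under the same conditions, holds 2 wide peaks without an ETS core, and the capitals mark GGAA (TTCC on the other strand) in TAF11L3 and a GGAA pair in WNT11. WNT11 was added to the set after the data were seen. The TAF11L3 stretch is upstream of a TSS that the peak covers, and the WNT11 stretch is in the first part of the gene, outside exons.
TAF11L3, chr5:17518157-17518306: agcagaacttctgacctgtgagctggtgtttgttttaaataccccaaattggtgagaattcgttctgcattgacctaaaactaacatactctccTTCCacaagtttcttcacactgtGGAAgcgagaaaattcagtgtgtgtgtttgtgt
WNT11, chr11:75916484-75916633: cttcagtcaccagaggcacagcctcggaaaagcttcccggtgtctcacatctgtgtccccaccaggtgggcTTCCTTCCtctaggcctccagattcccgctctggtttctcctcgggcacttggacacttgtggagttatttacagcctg
No FLI1-only promoter peak held 3 GGAA in a row (0 of 1373, at most 0.268%), so the pair in WNT11 is the longest kind of run among them.

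The last set is from lineage regulator genes whose promoter windows held no SSRP1 or H3K27ac peak, with the ETS core in capitals in GATA3 and single GGAA or TTCC in capitals in OLIG2 and PHOX2A. Each stretch is upstream of the nearest TSS of its gene. The midpoint of the GATA3 peak lies inside the annotated span of a protein-coding gene, those of OLIG2 and PHOX2A outside such genes. The first bases of the PHOX2A stretch lie in an exon of a PHOX2A transcript without a defined coding sequence.
GATA3, chr10:8096365-8096514: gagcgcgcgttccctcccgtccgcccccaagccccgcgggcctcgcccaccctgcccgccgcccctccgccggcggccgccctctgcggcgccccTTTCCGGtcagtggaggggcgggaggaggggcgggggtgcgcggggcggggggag
OLIG2, chr21:34397776-34397925: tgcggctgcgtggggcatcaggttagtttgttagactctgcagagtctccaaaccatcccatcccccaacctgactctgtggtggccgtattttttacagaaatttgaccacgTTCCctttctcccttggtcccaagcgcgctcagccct
PHOX2A, chr11:71956685-71956834: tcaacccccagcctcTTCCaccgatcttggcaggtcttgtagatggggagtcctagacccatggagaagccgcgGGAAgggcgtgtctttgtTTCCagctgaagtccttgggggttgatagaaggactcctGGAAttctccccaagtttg
GATA3 has the core in a GC-rich stretch (77.1% G and C over its 227 bp peak). OLIG2 and PHOX2A have only the GGAA centre.

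The peaks were narrow. Their median width was 268 bp (quartiles 231 to 338 bp, widest 1120 bp), against 400 bp for promoter FLI1 peaks with SSRP1 and H3K27ac, 312 bp for those with H3K27ac alone and 261 bp for FLI1-only peaks away from promoters. Width also enters the chance that a peak meets another, so its order among classes is a description. The smallest width in the list, 227 bp, was that of 310 of them (22.6%, 20.4 to 24.9%). The same width was found in 5.73% of promoter peaks with SSRP1 and H3K27ac and in 25.7% of FLI1-only peaks away from promoters. Only 19 (1.38%) had more than 1 summit line.

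The overlap limit divided few close cases, while the distance limit cut through a level run of peaks. Of the 1373 peaks, 48 touched an SSRP1 or H3K27ac peak below the limit, and 26 of those shared 10 to 20%, against 31 promoter FLI1 peaks that shared 20 to 30% and were left out. The outermost 250 bp of the window held 111 of the peaks, and the next 250 bp beyond it held 95 FLI1-only peaks. For tandem GGAA there was no continuum: 202 peaks had no GGAA, 1113 had single copies, 58 had a pair, and the 15 FLI1-only promoter peaks left out had runs of 8 to 17 copies.

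Most FLI1-only promoter peaks did not sit on the start site, where the rule also leaves them less room, since H3K27ac and SSRP1 peaks cover 36.3% of the sequence within 500 bp of a TSS. They covered a TSS in 164 cases (11.9%), and 445 (32.4%, 29.9 to 35.0%) came within 500 bp of one. Of promoter FLI1 peaks with SSRP1 and H3K27ac, 48.5% covered a TSS and 80.3% came within 500 bp, so the shares differed by -36.5 percentage points (-39.1 to -33.8) and -47.9 (-50.7 to -44.8). Promoter peaks with H3K27ac and no SSRP1 were placed much like the latter, with 76.9% within 500 bp. FLI1-only peaks lay as often upstream of the TSS as downstream (49.2% upstream), and 679 (49.5%) lay more than 1 kb away. Their midpoints were in a coding exon in 7.58%, in a UTR in 10.5%, elsewhere in a protein-coding gene in 53.4% and outside such genes in 28.6%. For peaks with SSRP1 and H3K27ac the UTR share was 27.3%.

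Counted per Mb of all sequence, FLI1-only peaks were nearly level across the promoter, but stretches under H3K27ac or SSRP1 are barred to them by the rule. By midpoint there were 13.8 per Mb in the first 500 bp from a TSS, 10.5 per Mb from 500 bp to 2.5 kb and 10.6 per Mb from 2.5 to 10 kb, where single 500 bp bins ran from 9.30 to 12.3. The first bin was thus 1.31 times the level beyond 2.5 kb and the rest of the window 0.994 times it. FLI1 peaks with H3K27ac fell from 107.8 per Mb in the first 500 bp to 3.47 per Mb beyond 2.5 kb, a ratio of 31.1. This contrast is built into the classes and is a description. Over sequence outside H3K27ac and SSRP1 peaks, a count added after the data were seen, there were 21.6 FLI1-only peaks per Mb (19.5 to 23.9) in the first 500 bp, 11.5 (10.8 to 12.3) from there to 2.5 kb and 10.8 (10.4 to 11.2) beyond. On that count the first 500 bp held 2.01 times the level outside the window, and the rest of the window 1.07 times. The label promoter thus describes a distance for most of these peaks, with a higher density close to the TSS.

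**Figure D1:**
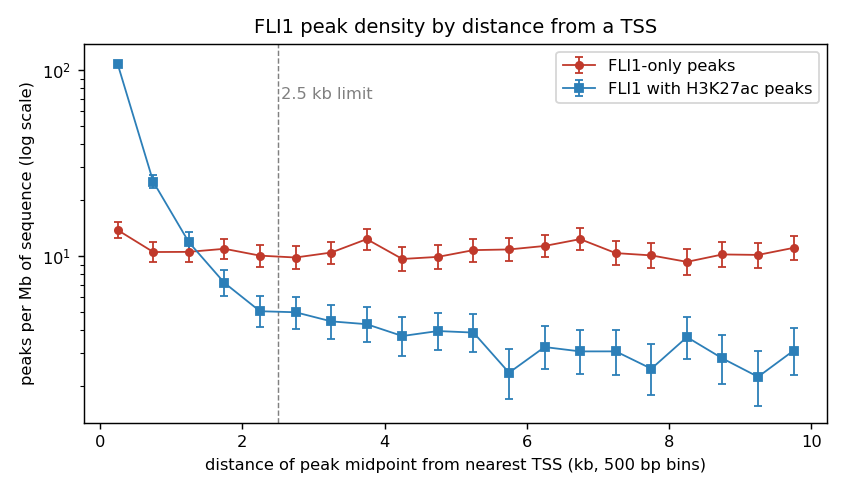
Density of FLI1 peak midpoints per Mb of sequence (log scale) in 500 bp bins of distance from the nearest protein-coding TSS, for FLI1-only peaks (circles) and FLI1 peaks with H3K27ac (squares), with 95% counting intervals. FLI1-only peaks are at 13.8 per Mb in the first bin and 10.6 beyond 2.5 kb, over all sequence, which includes stretches that the rule bars to them; acetylated FLI1 peaks drop from 107.8 to 3.47.

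The sequence under the peaks was poorer in CpG than that of promoter FLI1 peaks with SSRP1 and H3K27ac, and richer than its surroundings. The observed to expected CpG ratio had a median of 0.368, against 0.783 for promoter FLI1 peaks with SSRP1 and H3K27ac, which lay nearer the TSS. It was 0.297 for FLI1-only peaks away from promoters and also 0.297 for the same intervals moved by 1 kb to each side. A ratio of at least 0.6, a threshold used in defining CpG islands, was found in 19.7% of the FLI1-only promoter peaks. No length or GC condition was applied with it. In promoter peaks with SSRP1 and H3K27ac the share was 78.4%, a difference of -58.7 points (-61.3 to -55.9). Away from promoters the share was 7.41%. Median GC content was 55.6%, above the 50.7% of the same intervals moved by 1 kb to each side and below the 67.4% of peaks with SSRP1 and H3K27ac.

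The ETS core was present in 87 of the 1373 peaks (6.34%, 5.11 to 7.76%), as in the IGFBP7, A3GALT2, FAM166C and GATA3 stretches above. Among all FLI1 peaks of the same regions without tandem runs the share was 9.39%, and among windows of the same median width that tile 2.5 kb each side of all canonical TSSs it was 3.83%. Promoter FLI1 peaks with SSRP1 and H3K27ac held it in 31.6% and those with H3K27ac alone in 33.1%. The same intervals moved by 1 kb held it in 4.01%, a difference of 2.33 points (0.913 to 3.896), and moved by 10 kb in 2.15%. FLI1-only peaks away from promoters held it in 3.31%, lower by 3.02 points (1.82 to 4.46). The 87 peaks had 1 copy in 80 cases, 2 copies in 5 and 3 copies in 2, and the core lay a median of 53 bp from the midpoint.

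Peak width and GC content differ between these classes, so odds were also compared within 4 strata of width and 5 of GC (Mantel-Haenszel odds ratio). CpG ratio, which differs as well, was not a stratum. Against promoter peaks with SSRP1 and H3K27ac, the odds of an ETS core were 0.384 (0.290 to 0.509), and without strata 0.146. Adding distance to the TSS as a stratum, an alternative chosen after the data were seen, gave 0.446 (0.333 to 0.598). Against FLI1-only peaks away from promoters the odds ratio was 1.56 (1.23 to 1.98). No strata were used against the moved intervals, which had lower GC content and CpG ratio, or against the windows at canonical TSSs. The part of base composition in the differences from them was not tested.

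The core was more common near the TSS than beyond 1 kb. It was in 11.0% of the FLI1-only peaks over a TSS, 12.7% of those up to 250 bp away, 6.87% of those from there to 1 kb and 3.39% of those beyond 1 kb. Windows of the same median width at all canonical TSSs held it in 16.4%, 7.34%, 3.68% and 1.95% in the same bands. By share, FLI1-only peaks were above the windows by 5.31 points (1.08 to 11.2) up to 250 bp, by 3.19 (1.01 to 6.27) up to 1 kb and by 1.44 (0.314 to 3.08) beyond 1 kb. Over the TSS the difference was -5.43 points with an interval that includes 0 (-9.39 to 0.298). Within a band the windows were not matched to the peaks. All windows of the band up to 250 bp were centred 268 bp from a TSS. The windows were at canonical TSSs, and the nearest TSS was canonical for 46.1% of the peaks. The core was in 2.54% of the narrowest quartile of peaks and 8.77% of the widest. The part of position, start site and width in these differences was not tested. Peaks with SSRP1 and H3K27ac held the core in 43.3%, 24.6%, 17.9% and 17.5%, above the FLI1-only peaks in each band.

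**Figure D2:**
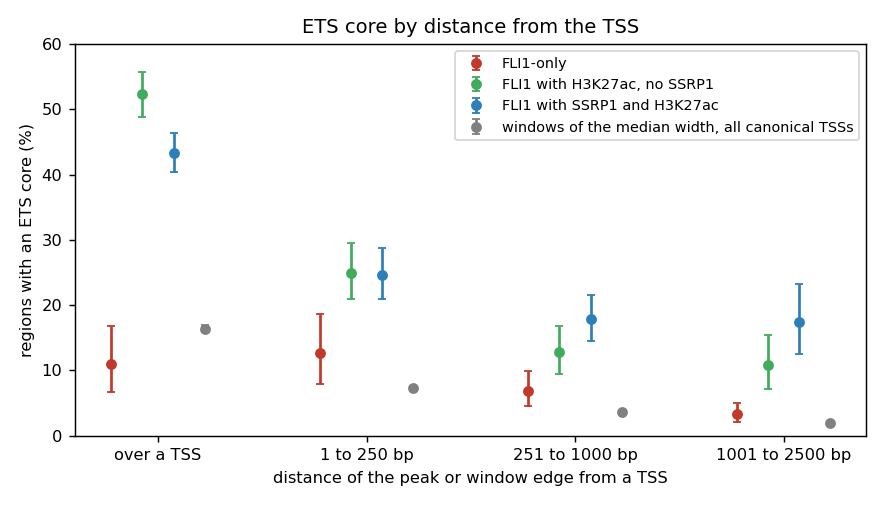
Share of regions with an ETS core (the 2 heptamers named in the text, either strand) by distance of the region's edge from a TSS, with 95% exact intervals, for 3 classes of promoter FLI1 peaks and for windows of the median FLI1-only width at all canonical TSSs. FLI1-only peaks lie below both acetylated classes in every band and above the windows in each band except over the TSS (11.0% against 16.4%). The windows were not matched to the peaks in width or in position within a band.

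Another ETS spelling was more common than the core. CAGGAAG or CAGGAAA, on either strand, was in 342 peaks (24.9%, 22.6 to 27.3%), against 17.6% of the same intervals moved by 1 kb, a difference of 7.32 points (4.66 to 10.1), and 15.9% of the windows that tile promoters. FLI1-only peaks away from promoters had it in 20.5% and promoter peaks with SSRP1 and H3K27ac in 30.1%. By share, this spelling set the classes apart far less than the core did. The core contains a CpG and this spelling does not. The median CpG ratio was 0.368 in FLI1-only promoter peaks and 0.783 in promoter peaks with SSRP1 and H3K27ac. The part of CpG ratio in the contrast was not tested. Among all GGAA in the peaks, those preceded by CA made up 14.0%, against 10.0% in the moved intervals. GGAA itself was in 85.3% of the peaks and 89.0% of the moved intervals, and the GGAA pair in 4.22% and 3.97%.

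Of the other motifs, the GC box was a little above the surroundings, the AP-1 site level with them and the GATA motif below. The GC box (GGGGCGGGG or GGGGCGGGA), bound by SP factors, was in 5.68% of FLI1-only promoter peaks, 4.15% of the moved intervals (difference 1.53 points, 0.158 to 3.05) and 30.2% of peaks with SSRP1 and H3K27ac. TGANTCA, the AP-1 site, was in 6.99% and 7.14% of the moved intervals. AGATAA, read by GATA factors, was in 5.61% against 11.2%, a difference of -5.57 points (-7.22 to -3.82). Other FLI1 classes had similar shares: 6.52% away from promoters without the marks, 5.42% at promoters with SSRP1 and H3K27ac and 6.21% with H3K27ac alone. The moved intervals also had a lower median GC content (50.7% against 55.6%), and its part in the motif differences was not tested. In the promoter tiling windows AGATAA was in 12.8% and the GC box in 4.56%.

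**Figure D3:**
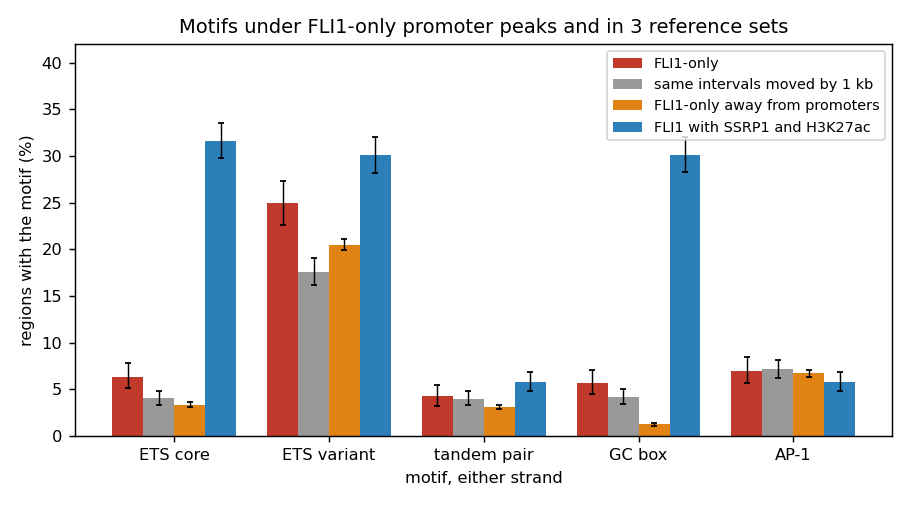
Share of regions with each of 5 motifs on either strand, with 95% exact intervals, for FLI1-only promoter peaks, the same intervals moved by 1 kb, FLI1-only peaks away from promoters, and promoter FLI1 peaks with SSRP1 and H3K27ac. The ETS variant (the CA-led spelling) is at 24.9% in FLI1-only peaks and 30.1% in the last class, while the ETS core and GC box are at 6.34% and 5.68% against 31.6% and 30.2%.

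H3K27ac or SSRP1 was called within 2.5 kb of a minority of the peaks, while the rule keeps both off the peaks themselves. An H3K27ac peak lay within 500 bp of 13.3%, within 1 kb of 21.7% and within 2.5 kb of 490 peaks (35.7%, 33.2 to 38.3%). FLI1-only peaks away from promoters had one within 2.5 kb in 7.25%, lower by 28.4 points (25.9 to 31.0). SSRP1 lay within 2.5 kb of 397 promoter peaks (28.9%) and of 5.90% of the others. Those others lie more than 2.5 kb from a TSS by the rule, and no promoter background was counted at this distance. By gene, H3K27ac was in a window of 49.4% of genes with a FLI1-only promoter peak, against 57.8% of all genes. For SSRP1 the shares were 38.8% and 34.8%. The median distance to H3K27ac was 11.0 kb at promoters and 32.3 kb away from them. A small number, 46 (3.35%), lay in a gap with an H3K27ac peak within 1 kb on each side. For 765 (55.7%) neither mark was within 2.5 kb.

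**Figure D4:**
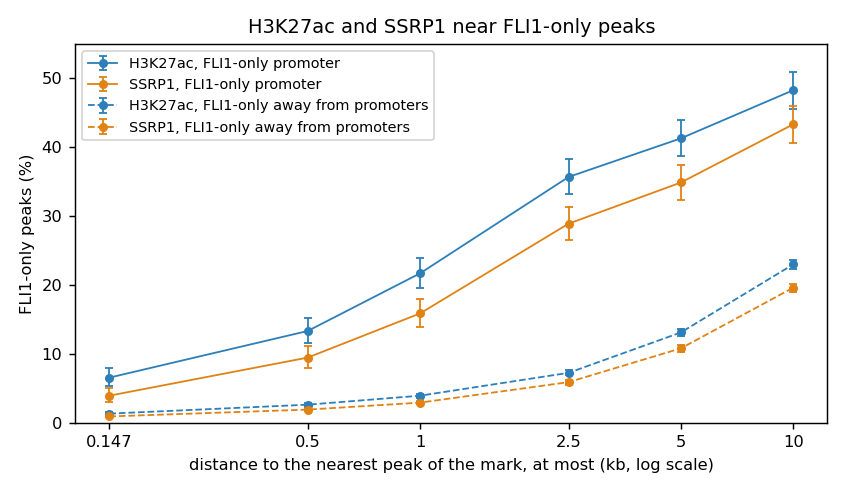
Share of FLI1-only peaks whose nearest H3K27ac (blue) or SSRP1 (orange) peak lies within the distance on the x axis (kb, log scale), at promoters (solid) and away from them (dashed), with 95% exact intervals. At 2.5 kb the promoter peaks are at 35.7% and 28.9%, the others at 7.25% and 5.90%.

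By this the FLI1-only promoter peaks fell into those beside an acetylated promoter and those at promoters without the mark. In 504 (36.7%) a promoter window that they met held H3K27ac, in 410 (29.9%) it held SSRP1, and in 757 (55.1%) it held neither. Peaks in acetylated windows were farther from the TSS: 22.02% were within 500 bp, against 38.4% of the 869 in windows without H3K27ac, a difference of -16.4 points (-21.1 to -11.4), which the rule itself shapes because acetylated stretches near the TSS are barred to them. SSRP1 was in the window in 59.1% of the first and 12.9% of the second. The ETS core did not separate them (6.35% and 6.33%, difference 0.0201 points, -2.55 to 2.88). Of the 869, 169 (19.5%) met the window of a gene with H3K27ac at another of its start sites.

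At the level of genes, 1333 of 18940 protein-coding genes (7.04%) had a FLI1-only promoter peak, out of 27.7% with any FLI1 peak in a window. H3K27ac was in a window of 658 of the 1333 (49.4%), against 57.8% of all genes, and SSRP1 in 517 (38.8%), against 34.8%. Genes with neither numbered 564 (42.3% of the 1333), against 38.2% of all genes with neither, and made up 2.98% of all genes. Another FLI1 peak outside the set was in a window of 294 genes (22.1%). Most genes, 1218, had 1 such peak, 101 had 2, 11 had 3, and 1 each had 4, 5 and 6. Since 86 peaks (6.26%) met the windows of 2 or more genes, genes are not independent of each other here.

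The widest peaks were of mixed kind. HELB, a DNA helicase, had a 705 bp peak over its TSS with an ETS core, and the nearest H3K27ac was 66.5 kb away. IGFBP7, a secreted protein that binds insulin-like growth factors, had a 661 bp peak 183 bp upstream of the TSS with the core printed above and H3K27ac 8.09 kb away. UNC5C, a netrin receptor in axon guidance, had a 690 bp peak 514 bp inside the gene without a core, and the nearest H3K27ac was 137 kb away. GALNT9, a glycosyltransferase, had a 709 bp peak with an ETS core 1108 bp downstream of a TSS. LPCAT1, an enzyme of phospholipid remodelling, and ZC3H12A, an RNase that restrains inflammation, had peaks of 770 and 731 bp that lay 238 and 6 bp from H3K27ac. WNT11, a Wnt ligand, had a 692 bp peak 742 bp downstream of the TSS, with SSRP1 0.522 kb away and H3K27ac 29.0 kb away. FXYD2, a regulator of the sodium pump, had a 668 bp peak 2268 bp downstream of a TSS and neither mark within 4.28 kb.

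The widest of all, 1120 bp over the TSS of TAF11L3 (chr5:17517672-17518791), and the second, 793 bp at TBC1D3G, are at genes with near-identical copies, where the authors' placement of reads that match several places is not known, so they are uncertain. The same holds for the 13 peaks at 8 of the 12 TAF11L genes in the analysed regions, all on chromosome 5 between 17517672 and 17595900. None of the 13 held an ETS core, and 3 covered a TSS. TAF11L9 (4 peaks) and TAF11L4 (3) belong to that group. TAF11L4 and LDLRAD4 are among 11 genes with 3 and were taken as those with the largest summed width. AC008132.13 (6, on chromosome 22), uncertain for the same reason, had peaks 229 to 442 bp wide. Peaks at other families of similar genes, such as the many at USP17L genes on chromosome 4 and those at NBPF and RGPD genes, carry the same uncertainty. They were not counted apart.

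RGS3 and LDLRAD4 have several peaks and several start sites. RGS3, which speeds the shut-off of G protein signals, has 10 annotated start sites, and 5 FLI1-only peaks of 227 to 644 bp lay at them over chr9:116226441-116344220, none with an ETS core and none closer to H3K27ac than 3.93 kb. LDLRAD4, an inhibitor of TGF-beta signalling, has 13 start sites and 3 such peaks of 344 to 502 bp, 1 of them with the core. Both genes had H3K27ac and SSRP1 at another start site.

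Lists of 20 gene groups were read against the 7.04% of all genes. Of 29 genes known as activated by the EWSR1-FLI1 fusion, 0 had a FLI1-only promoter peak (at most 11.9%), while 15 had some FLI1 peak and 26 had H3K27ac in a window. Of 19 repressed or mesenchymal genes 1 did, COL1A1, a collagen chain, where the peak was 227 bp wide, 2274 bp upstream of the TSS. Cytoplasmic ribosomal protein genes had 0 of 79, with some FLI1 peak at 24 and H3K27ac at 77. Mitochondrial ribosomal protein genes had 3 of 72, MRPL23, MRPL27 and MRPS10. DNA replication genes had 1 of 17, MCM3, a helicase subunit, with a 227 bp peak over its TSS touching H3K27ac under the limit. The tRNA synthetase genes had 1 of 37, SARS2. Solute carrier genes had 26 of 352 (7.39%) and potassium channel genes 7 of 86 (8.14%), each near the share of all genes.

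Lineage genes gave a few single peaks, with shares whose intervals all include 7.04%. Of 17 sympathetic and neuroblastoma genes, 3 had a FLI1-only promoter peak. These were GATA3, a zinc finger factor, 137 bp upstream of its nearest TSS, and PHOX2A, a homeodomain factor, 1427 bp upstream. The other was DBH, which makes noradrenaline, 1993 bp downstream. Of 13 neural progenitor genes, 3 had one, which were OLIG2, a bHLH factor, SOX1, an HMG-box factor, and NES, the filament protein nestin. All 6 genes lacked H3K27ac and SSRP1 in every window, as did 9 of the 17 and 10 of the 13 genes of the lists. Their peaks were narrow, from 227 bp at GATA3, PHOX2A and NES to 270 bp at DBH, and GATA3 and SOX1 had an ETS core. LMO2, a bridging factor in blood cells, was the 1 of 19 haematopoietic and endothelial genes.

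Among larger families, homeobox and paired-box genes had a peak at 20 of 167 (11.98%, 7.47 to 17.9%), and 11 of the 20 had neither H3K27ac nor SSRP1 in a window, as had 73 of the 167. The 3 widest were at LHX4 (581 bp), PAX8 (550 bp) and PAX5 (517 bp), all developmental regulators. HOXB8, named after its values were seen, had 3 narrow peaks within a short stretch, 1.67 kb or more from H3K27ac. Keratin genes had 7 of 55 (12.7%, 5.27 to 24.5%), and 6 of the 7 had neither mark, as had 48 of the 55. Forkhead, SOX and T-box genes had 5 of 74 (6.76%), among them FOXO3 and FOXP4. C2H2 zinc finger genes with a ZNF symbol had 20 of 516 (3.88%, 2.38 to 5.92%) and olfactory receptor genes 6 of 398 (1.51%, 0.555 to 3.25%). All 6 of the latter had neither mark, in a list where 5 genes had H3K27ac and 3 had SSRP1. FLI1 peaks of any class also differed between these lists. They were in a window of 61 of the 167 homeobox and paired-box genes and 9 of the 55 keratin genes. For ZNF genes the count was 123 of 516 and for olfactory receptor genes 9 of 398, against 27.7% of all genes. The family shares of FLI1-only peaks were not set apart from these counts. Clustered protocadherin genes had 3 of 53. Of the ETS family genes 2 of 27 had one, FEV, a 480 bp peak 398 bp downstream of the TSS, and ETV4, and of FACT and histone chaperone genes 1 of 15, ASF1B, which carries histones H3 and H4, with an ETS core 0.02 kb from H3K27ac.

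**Figure D5:**
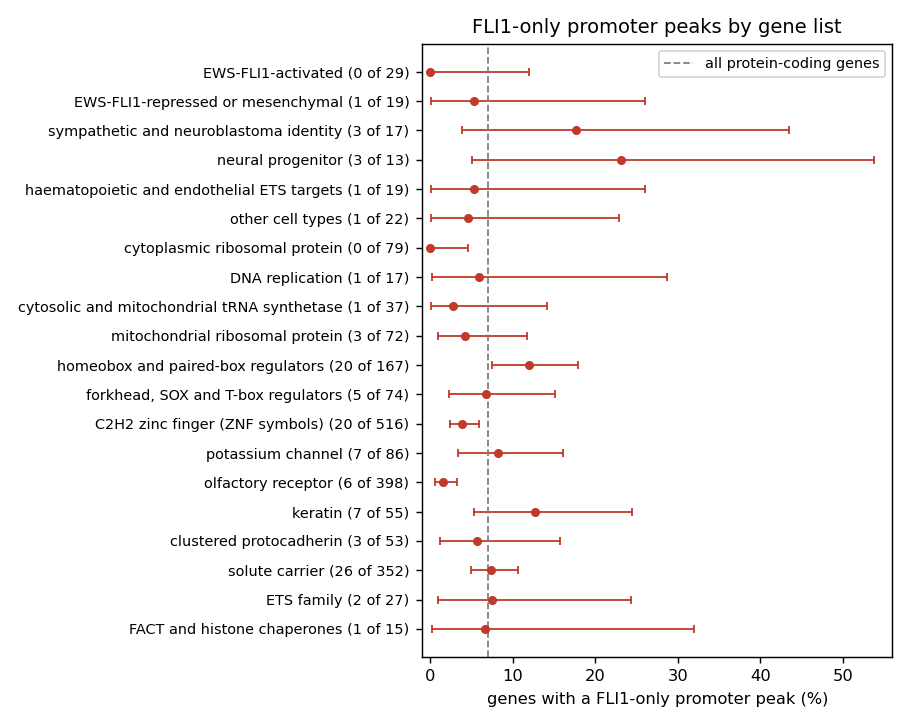
Share of genes with a FLI1-only promoter peak in each of 20 gene lists, with 95% exact intervals and the number of genes beside each name; the dashed line is the 7.04% of all protein-coding genes. The intervals of homeobox and paired-box genes lie above the line, those of cytoplasmic ribosomal protein, ZNF and olfactory receptor genes below it.

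Chromosomes differed in how many such peaks they carried. On chromosomes X and 10 there were 4 and 7 peaks, or 0.460 and 0.943 per 100 genes, on chromosome 3 before 120 Mb 14 (2.21), and on chromosome 22 there were 55 (12.2). The median over 22 chromosomes was 8.10 per 100 genes. Promoter FLI1 peaks of every class were few on the same chromosomes, 45 on X and 39 on 10, so the FLI1-only share of them was 8.89% (2.48 to 21.2%) on X, 18.0% (7.54 to 33.5%) on 10 and 21.5% on 3, against 30.9% (24.2 to 38.2%) on 22. FLI1-only promoter peaks per 100 genes followed FLI1-only peaks per Mb away from promoters with a Spearman coefficient of 0.490 over the 22 chromosomes, promoter FLI1 peaks with H3K27ac per 100 genes with 0.4997, and H3K27ac peaks per Mb with 0.274, from 1 library each.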

How the data were processed

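The deposited peak lists of FLI1, SSRP1 and H3K27ac ChIP-seq in SK-N-MC cells were used, 1 library each, with targets taken from the sample titles. Alignment was to hg19 with Bowtie2, and peaks came from MACS2 against input at q 0.05, both per the series' design text. MACS2 was version 2.2.7.1, per the submitters' processing notes. The authors' handling of duplicate or multiply mapped reads is not stated in what was used here. The deposited values are peak starts and ends, with no count, height or score, so depth and its precision are unknown.

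Intervals repeated for several summits were counted once. Overlaps, distances and motifs were computed in Python 3.11.15 (pandas 2.3.3, scipy 1.17.1, pysam 0.24.0) on GRCh37 and GENCODE 44 lifted to it, over all basic protein-coding transcripts. Sequences came from that genome. Shares have exact (Clopper-Pearson) intervals, differences Newcombe intervals for independent groups, and odds ratios are Mantel-Haenszel. The functions were tested on simulated data. Alternatives varied the overlap, window, start sites, widths and motif.

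The peaks and gene lists were chosen with earlier results of these data known. Named genes were those at the 10 widest peaks, the 5 with the most peaks (ties by summed width), every gene with a peak in lists of up to 40 genes, and the 3 widest of longer lists. Genes named outside this rule are said to be so in the text, and 1 gene that the rule names is not reported here. Input has no peak list and was not used alone. List patterns by family symbol replaced prefixes after a first look, because a prefix caught unrelated names, and 1 symbol matched to the wrong gene in the list of FACT and histone chaperones was corrected.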

Additional observations from a re-analysis of the deposited data

How the results depend on the processing

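Of the alternatives run, 25 moved a result and 38 did not, by the counting interval of a share, 1 SD of width, 1.5 times a number of peaks, or the side of 1 on which the odds ratio and its interval lay. Some moves follow from the setting itself. These include the share within 500 bp under another window, H3K27ac within another distance, and a core sought in less sequence or by 1 spelling. Requiring 50% overlap before a peak counted as shared gave 8.81% with an ETS core, 40.8% with H3K27ac within 2.5 kb, 7.87% of genes and 36.0% within 500 bp of a TSS. A window of 1 kb gave 694 peaks, 9.22%, 28.5%, 3.62% and 64.1% for the same 4 shares, and one of 5 kb gave 2414 peaks, 4.89%, 28.4%, 12.1% and 18.4%. Canonical start sites alone gave 40.2% near H3K27ac, 5.36% of genes and 28.4% within 500 bp. Keeping only FLI1 peaks of at least the list's median width gave 591 peaks, 8.12% with a core, 3.14% of genes and 36.4% within 500 bp. Only the central 200 bp held a core in 4.81%, and CCGGAAG alone was in 4.01%. H3K27ac was within 1 kb of 21.7% and within 5 kb of 41.3%. The odds ratio for the core against peaks with SSRP1 and H3K27ac stayed below 1 in every alternative run, from 0.146 without strata to 0.557 at 50% overlap. Libraries could not be paired because each target has 1, and no test was made. Differences from the moved intervals were computed as for independent groups, although each moved interval belongs to a peak. Depth is unknown, so a peak not called may lie below the caller's limit.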

Other observations

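The REST motif was in 3 of 1373 (0.218%, 0.0451 to 0.637%) and in 1 of the 2746 intervals moved by 1 kb. The 3 peaks were at FBLL1 (541 bp upstream of the TSS), PCDH8 (1257 bp downstream, in a coding exon, also with an ETS core) and HBA2 (1435 bp downstream). PCDH8 is a protocadherin of neurons, and HBA2 encodes alpha globin, one of a pair of near-identical genes. The CTCF motif was in 1 peak, at DDX60, 10 bp downstream of the TSS and also with an ETS core, and the NRF1 motif in 1, at ZHX3. The YY1 motif was in 0 (at most 0.268%). Among the intervals moved by 1 kb, the CTCF motif was in 0.182%, the NRF1 motif in 0.109% and the YY1 motif in 0 of 2746. These counts are thus near those of the surroundings. FLI1-only promoter peaks lay within 5 kb of another in 177 cases (12.9%). These genes were named after their values were seen.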
